A study of Mus musculus with 4 samples.

Results

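Desert regions were open stretches of chromatin in fetal mouse lung that lay outside every protein-coding gene and more than 100 kb from the nearest gene end. They were found by merging the peaks of 4 peak lists on the 19 autosomes and X and keeping each merged region that held a peak of every library. This choice used gene positions and the presence of a peak, and did not use peak height. Of 307423 merged regions, 66171 were open in all 4 libraries, and 5347 of these, or 8.08%, were desert regions. The other shared regions were 26389 in gene bodies, 15553 within 1 kb of a gene end and 18882 between genes but nearer than the limit. ATAC-seq maps open chromatin with a transposase, Tn5, that cuts accessible DNA and adds sequencing adapters to it. The 4 libraries, replicates 1 to 4, came from lungs of wild-type embryos at E15.5 and formed the single group, with no mutant allele or agent in the labels. According to the labels each library used 60000 nuclei of snap-frozen tissue, although peak names in the list of replicate 1 carried "Frais", French for fresh, and names in the other lists "Frozen", with replicate numbers other than those of the labels. No label said whether replicates were separate embryos or litters, so SDs and p-values cover the spread among these 4 libraries only, and that spread may be technical.

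A gene desert is a long stretch of a chromosome without protein-coding genes. Deserts beside genes that pattern embryos often hold distant enhancers, which act across long distances on a promoter at the edge of the desert, and other deserts hold few conserved elements. In the lung, airway branching and mesenchyme formation depend on transcription factors of the SOX, T-box, forkhead and NKX families and on FGF, BMP, WNT and hedgehog signals.

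The libraries held 134446 to 211575 peaks on these chromosomes, and 14991 to 17055 of them lay in deserts. Replicate 1 had the shortest list and the most desert peaks, with 12.7% of its peaks in deserts, against 7.20% to 8.18% in replicates 2 to 4. The tissue label was checked at gene ends: all 11 lung markers, among them Nkx2-1, Sftpc and Tbx4, had a peak of every library within 1 kb of an end, against 67.8% of all protein-coding genes.

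Some desert regions lay at the starts of non-coding genes, and their sequences are shown here because no protein-coding promoter can lie in a desert region. RefSeq promoter windows (250 bases before to 50 bases after a start, GRCm38.p6) of 1746 long non-coding RNA genes lay in desert cores, that is, in the DNA more than 100 kb from both neighbouring genes. Those of 150 genes, or 8.59%, lay whole inside a desert region. The first set below holds 3 of the strongest such regions, and the second the strongest in 3 of the deserts with most regions. The shown sequences were not drawn from every chromosome, so a stronger such region may exist. Each sequence is written on the strand of its gene, and capitals mark every match, on either strand, to the GC box GGGCGG, the CCAAT box CCAAT, the AP-1 motif TGANTCA, the forkhead motif TGTTTAC, the TEAD motif GGAATG, the E-box CAGCTG, the NK2 motif CAAGTG or the TATA motif TATAAA.
Gm26901, chr1:7398047-7398346, minus strand: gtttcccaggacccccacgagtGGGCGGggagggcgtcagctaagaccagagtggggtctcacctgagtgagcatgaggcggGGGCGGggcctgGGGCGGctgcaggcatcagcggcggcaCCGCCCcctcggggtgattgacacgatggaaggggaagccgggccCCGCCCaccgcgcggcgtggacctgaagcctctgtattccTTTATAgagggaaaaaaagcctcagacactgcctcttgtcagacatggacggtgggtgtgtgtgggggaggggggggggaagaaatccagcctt
8430430B14Rik, chr17:83998302-83998601, plus strand: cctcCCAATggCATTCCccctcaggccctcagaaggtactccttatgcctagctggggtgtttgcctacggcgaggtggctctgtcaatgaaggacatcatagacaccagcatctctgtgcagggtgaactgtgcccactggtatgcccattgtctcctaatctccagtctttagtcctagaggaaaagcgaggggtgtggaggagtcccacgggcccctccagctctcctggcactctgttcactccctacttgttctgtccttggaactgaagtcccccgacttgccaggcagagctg
Gm31344, chr1:73363656-73363955, plus strand: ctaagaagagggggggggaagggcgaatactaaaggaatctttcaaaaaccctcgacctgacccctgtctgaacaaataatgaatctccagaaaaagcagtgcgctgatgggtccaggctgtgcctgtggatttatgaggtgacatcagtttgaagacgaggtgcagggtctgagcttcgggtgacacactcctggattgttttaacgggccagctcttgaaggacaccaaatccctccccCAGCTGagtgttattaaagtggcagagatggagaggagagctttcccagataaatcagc
Gm30895, chr5:119053376-119053675, plus strand: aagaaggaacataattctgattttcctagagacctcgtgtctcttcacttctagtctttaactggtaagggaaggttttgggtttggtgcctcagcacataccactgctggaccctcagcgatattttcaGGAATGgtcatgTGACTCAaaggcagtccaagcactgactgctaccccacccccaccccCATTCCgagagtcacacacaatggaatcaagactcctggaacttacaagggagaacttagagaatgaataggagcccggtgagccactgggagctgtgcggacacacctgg
Gm13470, chr2:46442856-46443155, minus strand: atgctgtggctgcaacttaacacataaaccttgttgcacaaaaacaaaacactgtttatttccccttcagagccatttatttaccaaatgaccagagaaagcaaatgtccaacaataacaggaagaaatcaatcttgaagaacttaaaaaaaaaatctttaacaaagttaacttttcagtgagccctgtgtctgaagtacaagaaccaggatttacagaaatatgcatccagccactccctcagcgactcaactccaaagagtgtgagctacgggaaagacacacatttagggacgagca
Gm33447, chr13:97375930-97376229, plus strand: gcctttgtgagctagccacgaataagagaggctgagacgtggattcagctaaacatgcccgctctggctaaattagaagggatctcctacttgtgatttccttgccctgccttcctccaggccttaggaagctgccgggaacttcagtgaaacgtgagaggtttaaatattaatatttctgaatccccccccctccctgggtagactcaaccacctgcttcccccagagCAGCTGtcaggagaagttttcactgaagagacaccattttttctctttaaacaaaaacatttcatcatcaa

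The window of Gm26901, in the Pcmtd1–Sntg1 desert, held 5 GC boxes, 1 TATA motif and 18 CpG dinucleotides. Its desert region had deposited folds of 211, 64.3, 67.7 and 80.0 in replicates 1 to 4, where fold is the authors' enrichment of the peak summit over background. The window of 8430430B14Rik, in the Haao–Zfp36l2 desert, held 1 CCAAT box and 1 TEAD motif, and its region had folds of 184, 56.6, 42.3 and 66.6. Gm31344, in the Tnp1–Tns1 desert, held 1 E-box and lay in a region with folds of 166, 32.3, 27.0 and 23.3. Gm30895, in the Med13l–Tbx3 desert, held 1 AP-1 and 2 TEAD motifs, and its region had folds of 100.2, 21.5, 15.9 and 9.96. Gm33447, in the Enc1–Arhgef28 desert, held 1 E-box, and Gm13470, in the Zeb2–Acvr2a desert, held none of the 8 motifs. Replicate 1 had the highest fold in each of these regions, as it had over all peaks, so folds were compared by their percentile within a library's own list.

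Over the 171 windows of these 150 genes, 24.0% held a GC box. The share was 4.12% of the 1895 windows of non-coding genes that lay in deserts outside desert regions. It was 35.9% of all 32618 promoter windows. These comprised 21044 windows of protein-coding genes, of which 46.7% held a GC box, and 11574 of non-coding genes, of which 16.3% did. The E-box was held by 24.6% of the windows in desert regions, against 14.8% of the other desert windows and 16.4% of all promoters. The TEAD motif was held by 21.6%, against 16.5% and 14.6% in those groups. The NK2 motif was held by 17.5%, against 12.2% and 13.5%. The CCAAT box was at 39.8%, against 39.7% and 37.6%. The TATA motif was held by 9.94%, against 21.2% and 13.7%, AP-1 by 7.02%, against 10.7% and 7.85%, and the forkhead motif by 4.09%, against 4.70% and 3.67%. Median GC content was 52.3% in the windows of desert regions, against 44.3% in the other desert windows and 53.0% in all promoters. It was 48.3% in the windows of all non-coding genes and 56.7% in those of protein-coding genes. These shares are counts of letters in fixed windows, with no test.

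In all, 1326 desert regions, or 24.8%, overlapped an annotated long non-coding RNA gene, whose bodies covered 10.2% of the desert cores. Desert regions that held a whole promoter window numbered 145. Their median fold percentile, averaged over libraries, was 79.3, against 71.2 for the other desert regions, and their median width was 1526 bp, against 1017 bp. A region must be long enough to hold a whole window, so this choice favours wide regions. The part of that choice in both differences was not tested. Another 9 desert regions overlapped a microRNA gene. The mature sequences of 3 of them are shown with the seed, bases 2 to 8, in capitals, because 2 of them, from deserts on different chromosomes, share a seed and the other belongs to the conserved miR-125 (lin-4) family.
miR-125b-5p, chr9:41581940-41581961: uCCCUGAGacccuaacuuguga
miR-344d-3p, chr7:61685279-61685300: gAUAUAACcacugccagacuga
miR-410-3p, chr12:109743764-109743784: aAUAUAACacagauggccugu

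Mir125b-1 lay in the Ubash3b–Gm40514 desert, 324 kb from Gm40514, in a region with folds of 30.8, 11.3, 7.80 and 9.34 in replicates 1 to 4. Mir344d-2 lay in the Gm51483–Ndn desert, beside the imprinted gene Ndn, and its region had folds of 27.9, 4.14, 3.90 and 4.05. In the same desert, Mir344g had folds of 81.3, 15.7, 15.04 and 10.6 and Mir344i folds of 46.3, 11.9, 9.75 and 9.34. Mir410 lay between Rtl1 and Dio3, an imprinted cluster, with folds of 19.6, 5.52, 4.74 and 4.98. Mir3072, in that cluster too, had folds of 56.2, 17.4, 18.1 and 15.6. Mir410 and Mir344d-2 give mature forms with the seed AUAUAAC. The region of each ranked below the other desert regions of its desert that overlapped a microRNA gene. Mir802 was in the Runx1–Setd4 desert and Mir7214 in the Lemd2–Grm4 desert.

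Open chromatin thinned with distance from genes. Regions open in all 4 libraries numbered 13.3 per Mb at 100 to 200 kb from the nearest gene end, 7.88 per Mb at 200 to 400 kb, 3.51 per Mb at 400 to 800 kb and 1.38 per Mb beyond 800 kb, against 30.2 per Mb at 2 to 10 kb. Peaks of the single libraries showed the same order, with 36.8 ± 0.623 per Mb at 100 to 200 kb and 5.76 ± 1.07 per Mb beyond 800 kb (SD, n = 4). Replicate 1 had the lowest density of the 4 libraries at 2 to 10 kb, 56.3 per Mb against 106 to 125 per Mb, and the highest beyond 200 kb. The order was different in stretches of 2 Mb or more between genes: there the shared regions numbered 4.06 per Mb at 2 to 10 kb, 8.05 per Mb at 50 to 100 kb and 1.37 per Mb beyond 800 kb. Long stretches were sparse near their genes too. Just inside the limit, at 100 to 110 kb, there were 467 desert regions, and just outside, at 90 to 100 kb, there were 540 intergenic regions. The median distance of a desert region from a gene end was 189 kb, with 467 regions beyond 500 kb and 94 beyond 1 Mb.

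**Figure D1:**
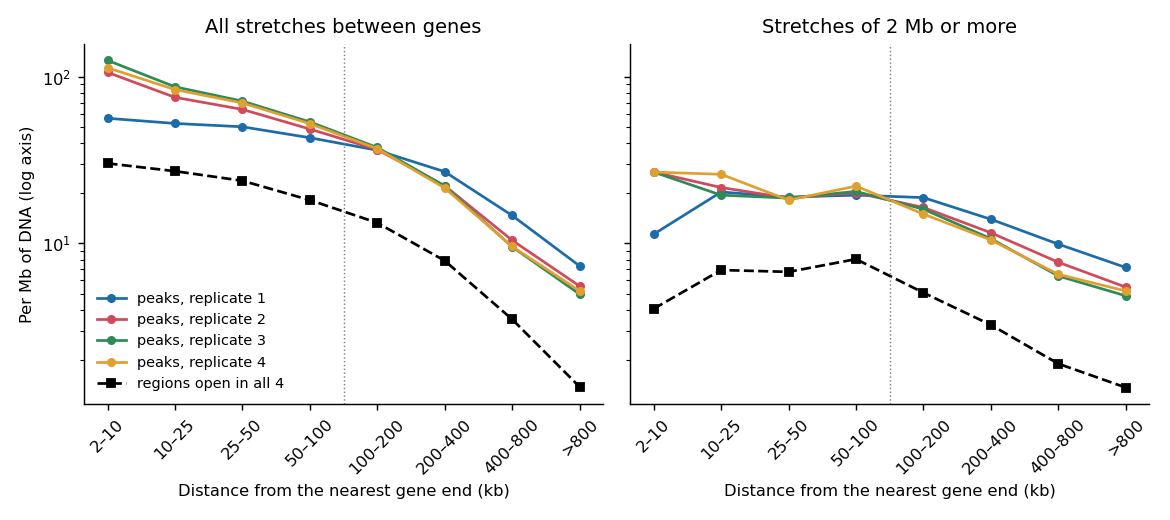
Peaks per Mb of DNA in each library (colours) and regions open in all 4 libraries per Mb (dashed) by distance from the nearest protein-coding gene end in kb, on a log axis, for all stretches between genes and for those of 2 Mb or more. Shared regions fall to 1.38 per Mb beyond 800 kb in all stretches, and replicate 1 lies above the other libraries beyond 200 kb; the dotted line marks the limit of 100 kb.

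Desert regions ranked below regions at gene ends by fold in every library. Desert regions had median fold percentiles of 72.2, 76.7, 77.2 and 73.9 in replicates 1 to 4, against 71.2, 81.4, 82.9 and 81.4 for all other shared regions. They ranked lower in replicates 2, 3 and 4 and higher in replicate 1, a mean difference of -4.22 percentiles (SD 3.64, n = 4; two-sided exact sign-flip permutation p = 0.25). In these regions the differences in replicates 2 to 4 were -4.66, -5.71 and -7.47 percentiles. Leaving out replicate 1 also changed the regions, to those open in replicates 2 to 4, with 6738 in deserts. The mean difference over that set was -2.68 percentiles. With 4 libraries this exact test has 16 sign patterns, and at least 2 of them are as extreme as the data, so no comparison over libraries could pass 0.05. Against shared regions between genes but nearer than 100 kb, the differences were 6.26, -1.40, -1.82 and -4.45 percentiles in replicates 1 to 4, so 3 libraries were lower and replicate 1 was higher. Their mean was -0.35 percentiles (SD 4.61, n = 4, exact sign-flip p = 0.875). Regions at gene ends had median percentiles of 87.9 to 94.3. Desert regions had median peak widths of 644, 684, 636 and 664 bp, against 638, 957, 995.5 and 1079 bp for the other shared regions. The mean difference was -260 bp (SD 187, n = 4, exact sign-flip p = 0.25), and replicate 1 had no difference of that size, at 6.0 bp. In replicates 2 to 4 the differences were -273, -359.5 and -415 bp. Over the regions chosen without replicate 1 the mean difference was -167 bp. A peak above percentile 90 of its list was found for 13.5% to 16.7% of desert regions in each library, and 389 desert regions, or 7.28%, were there in all 4, against 17.1% of the other shared regions.

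Merged regions were also counted by the number of libraries that held them, with no test. There were 31638 merged regions in deserts, of which 16.9% were open in all 4 libraries, against 22.1% of merged regions outside deserts. Another 57.2% of the merged regions in deserts came from 1 library only, against 48.6% outside. Replicate 1 supplied 38.2% of these single-library regions in deserts, against 15.1% outside. Of merged desert regions found in exactly 3 libraries, 41.8% lacked replicate 1, against 68.9% outside deserts.

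Desert regions were spread unevenly over deserts. The annotation gave 1519 stretches longer than the limit allows between neighbouring genes, with 710 Mb of core and a median core of 219 kb. They held 5314 desert regions, or 7.48 per Mb of core; the other 33 regions lay between a gene and a chromosome end. The 156 deserts with most regions, 10.3% of all, were enough to hold 50% of the bounded regions, and 544 deserts held none. A desert was called dense when it held at least 5 desert regions at 2 times the pooled density or more, which was 14.96 per Mb. Of 1040 deserts with a core of 100 kb or more, 188 were dense, which is 18.1%. Dense deserts covered 10.8% of the core DNA and held 49.2% of the bounded desert regions, at 34.1 per Mb, against 4.26 per Mb in all other deserts. Dense deserts and the 156 above were picked by these same counts. Their high shares therefore follow in part from the choice and were not tested. Within a desert, neighbouring regions were 18.2 kb apart at the median, and 1662 of 4360 gaps, or 38.1%, were under 10 kb.

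Longer deserts had fewer regions per Mb: deserts with cores of 100 to 250 kb held 15.1 regions per Mb, those of 250 to 500 kb 13.6, those of 500 to 1000 kb 8.71 and those over 1 Mb 3.16. Of the 204 deserts with cores over 1 Mb, 6 were dense and 17 held no desert region. Among autosomes the density was highest on chromosome 13, at 12.5 per Mb, and lowest on chromosome 19, at 5.19. It was 2.99 per Mb on X. The single libraries differed there, with 8.41, 20.6, 7.02 and 15.6 peaks per Mb of X core in replicates 1 to 4. Replicates 2 and 4 were within their range over autosomes, and replicates 1 and 3 were below every autosome. A desert region needs a peak of replicates 1 and 3 too, and the part of that rule in the low density on X was not tested.

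The desert with most open regions was Med13l–Tbx3, on chromosome 5 from 118765439 to 119670533 (mm10), with 45. Its first place depended on the processing: Mn1–Cryba4 led without replicate 1, with 69 regions against 53 in Med13l–Tbx3, and Zeb2–Acvr2a led at a q of 1e-05 or less, with 28 against 23. Tbx3 encodes a T-box transcription factor of lung mesenchyme and limb, and Med13l a subunit of the Mediator kinase module. The libraries had 91, 112, 127 and 110 peaks there in replicates 1 to 4, and 26 of the 45 regions were nearer Tbx3. The strongest, at 119479530 to 119481489, lay 189 kb from Tbx3 and had folds of 166, 26.5, 27.0 and 15.2, a mean percentile of 96.2 ± 2.19 (SD, n = 4). Up to 14 of its regions fell in a single window of 100 kb.

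Mn1–Cryba4, also on chromosome 5, from 111457031 to 112246491, held 43 regions, and 69 without replicate 1. Mn1 encodes a transcriptional coregulator and Cryba4 a lens crystallin. The libraries had 67, 113, 143 and 152 peaks, with replicate 1 the lowest, and 34 of the 43 regions were nearer Mn1. The ends of Mn1 were open in all 4 libraries, and those of Cryba4 in none. The strongest region, at 111674825 to 111680016, had folds of 189, 43.9, 33.1 and 35.8.

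Rps24–Zmiz1, on chromosome 14 from 24496961 to 25457874, held 38 regions, of which 33 were nearer Zmiz1. Zmiz1 encodes a coactivator of the PIAS type and Rps24 a ribosomal protein. The libraries had 79, 116, 115 and 120 peaks there, and replicate 1 stood apart below the others. The strongest region lay at 24777734 to 24780963, with folds of 111, 34.8, 27.3 and 31.4, nearer Rps24 than most of the others. H2al1j–Bcor, on X from 11328152 to 12036736, also held 38. Bcor encodes a corepressor, and H2al1j a histone variant. The libraries had 72, 124, 69 and 112 peaks there, so replicates 2 and 4 were above replicates 1 and 3. That split was present over X as a whole: deserts of X held 490, 1160, 403 and 876 peaks and the rest of X 2507, 4974, 2246 and 3972, whereas autosomal deserts held 16565, 14073, 14824 and 14115. Its part in the count for H2al1j–Bcor was not tested. The strongest region there, at 11663043 to 11667379, had folds of 47.9, 14.9, 10.6 and 14.3.

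Zeb2–Acvr2a, on chromosome 2 from 45117443 to 48814108, held 36 regions in a core of 3497 kb, among the 10 longest. Zeb2 encodes a zinc-finger repressor of epithelial genes and Acvr2a a receptor for activins. Its density, 10.3 per Mb, was below the limit for dense, and it was the exception among the 15 deserts with most regions. The libraries had 128, 79, 69 and 62 peaks, with replicate 1 highest. The strongest region, at 48493128 to 48495334, lay 319 kb from Acvr2a with folds of 211, 43.1, 34.5 and 36.7. The region at 46986406 to 46987246 lay 1827 kb from Acvr2a, the nearer gene.

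**Figure D2:**
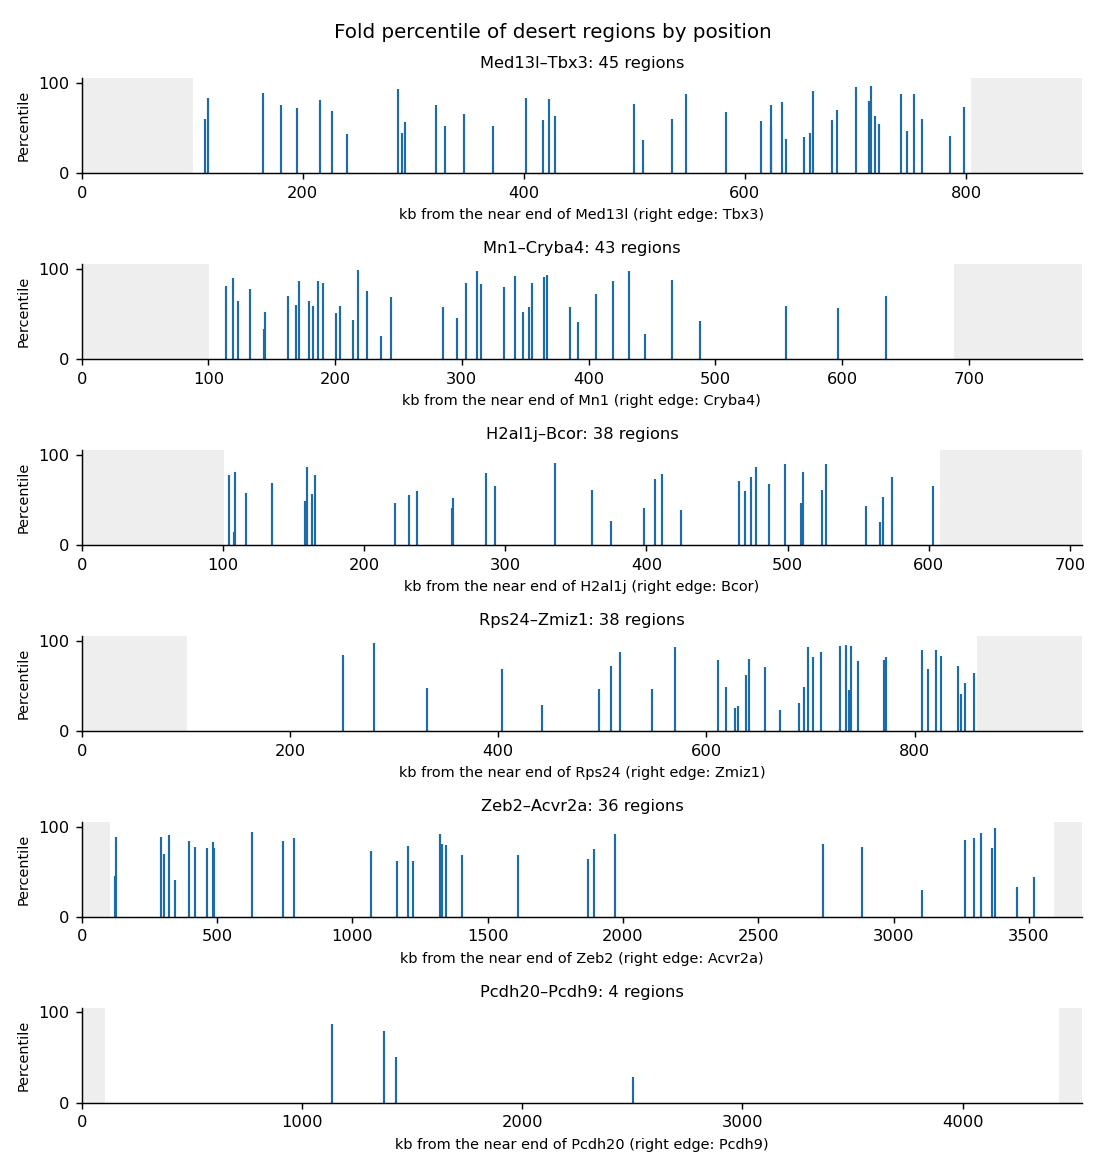
Position of each desert region in the 5 deserts with most regions and in the longest desert, as kb from the flanking gene on the left (grey: the excluded 100 kb beside each gene), with the height giving the mean fold percentile over 4 libraries. The 43 regions of Mn1–Cryba4 gather toward Mn1 and the 38 of Rps24–Zmiz1 toward Zmiz1, and Pcdh20–Pcdh9 holds 4.

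The next deserts by count were Myc–Gsdmc, Enc1–Arhgef28 and Prl5a1–Sox4 with 31 regions each, then Gm44812–Mctp2 and Gm5148–Ankrd50 with 30. Myc encodes a growth-promoting transcription factor, Enc1 an actin-binding protein, and Sox4 a SOX-family factor of progenitor cells. Myc had peaks of 99, 65, 76 and 69 in the desert on its Gsdmc side, and Sox4 of 76, 70, 87 and 71 on its Prl5a1 side. In the Prl5a1–Sox4 desert 21 of 31 regions were nearer Sox4, and 29 of them overlapped a long non-coding RNA gene. Gm44812–Mctp2 had 108, 65, 58 and 57 peaks, with replicate 1 apart above the others.

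The remaining deserts of the first 15 were 9530057J20Rik–Gm15319, Cdh11–Cdh5, Cd83–Jarid2 and Zfp516–Tshz1 with 29 each and Foxl1–1700018B08Rik with 28. Cdh11 and Cdh5 encode cadherins of mesenchyme and endothelium, Jarid2 a Polycomb cofactor, Tshz1 a zinc-finger factor and Foxl1 a forkhead factor of mesenchyme. Foxl1–1700018B08Rik, with 44 regions without replicate 1, had 140 regions per Mb, with 20 in 1 window of 100 kb and peaks of 38, 78, 98 and 94. In 9530057J20Rik–Gm15319, 26 of the 29 regions lay in 1 window of 100 kb, 64.4% of its merged regions were open in all 4 libraries, and its widest region spanned 14507 bp. The 15 deserts together held 497 regions, 9.35% of those between 2 genes. At least 1 flanking gene of each had open ends in every library, as at 97.9% of dense deserts and 84.6% of the other tested deserts. In 10 of the 15 both flanks were open, and the share of such deserts over all deserts was not counted. By single gene, 82.0% of the genes beside dense deserts and 67.8% of all protein-coding genes had open ends. A developmental transcription factor flanked 6 of the 15, against 225 of all 1519 deserts.

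**Figure D3:**
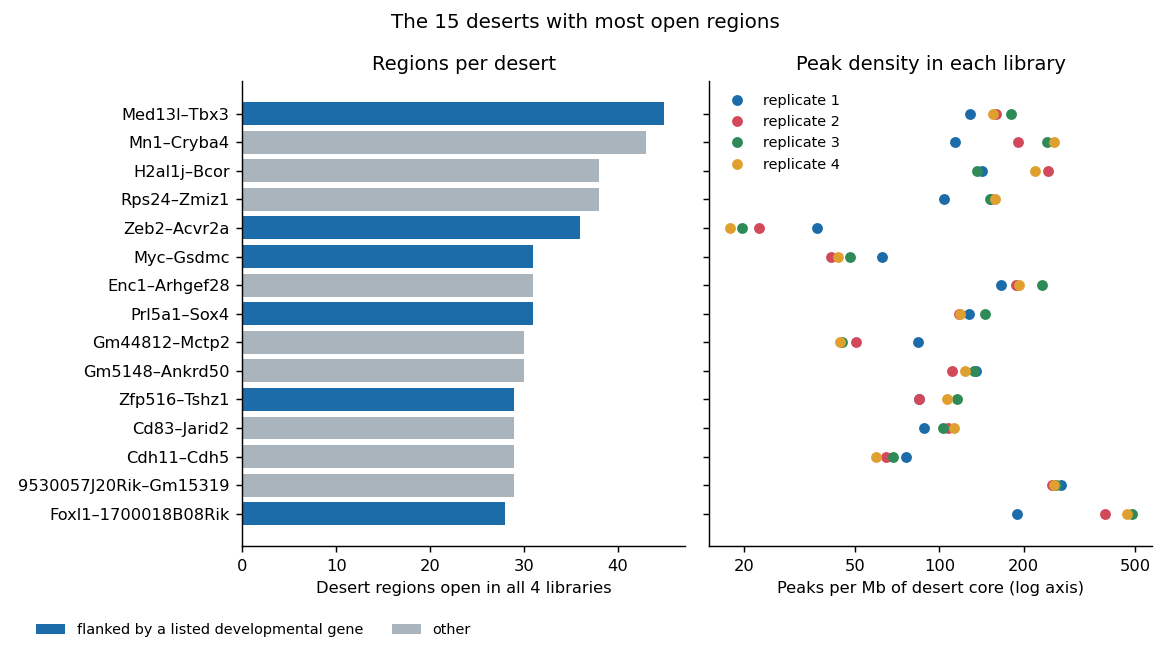
Desert regions open in all 4 libraries in the 15 deserts with most of them (left, blue where a listed developmental gene flanks the desert, grey elsewhere) and peaks per Mb of desert core in each library (right, log axis). Counts run between 45 and 28, and Zeb2–Acvr2a has the lowest peak density of the 15.

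Among deserts with cores of 500 kb or more, the 10 of highest density included 8 of these, plus Rragc–Pou3f1, with 24 regions at 46.1 per Mb, and Runx1–Setd4, with 22 at 39.5 per Mb. Pou3f1 encodes a POU-domain factor and Runx1 a factor of blood and epithelium. The libraries had 40, 46, 67 and 58 peaks beside Pou3f1 and 42, 65, 84 and 77 beside Runx1, in both cases fewest in replicate 1.

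A larger share of the genes beside dense deserts than of those beside other deserts had open ends, in each of the 4 libraries and with no test. Of 361 genes beside dense deserts, 82.0% had a peak of every library within 1 kb of a gene end, against 63.9% of the 1470 genes beside the other tested deserts and 67.8% of all 21517 protein-coding genes. The shares by library were 83.9%, 86.4%, 87.3% and 87.8% beside dense deserts, against 68.4%, 71.6%, 70.5% and 71.0% beside the others. A desert with at least 1 such open flank made up 97.9% of the dense deserts, against 84.6% of the others.

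Flanking genes of 5 lists were compared by the peak density of each library in the desert cores beside them. Lung regulators, 113 genes of lung formation, flanked 87 deserts, which held 51.6, 49.4, 52.2 and 49.4 peaks per Mb in replicates 1 to 4, against 22.4, 19.7, 19.6 and 19.4 in all other deserts. The difference was 30.4 ± 1.53 peaks per Mb (SD, n = 4), and the libraries of the groups did not overlap (2 of 16 sign patterns as extreme, the fewest possible, two-sided exact sign-flip permutation test). Of 67 tested deserts beside these genes, 28, or 41.8%, were dense, against 16.4% of the others and 18.1% overall. Their median density was 14.2 desert regions per Mb, against 4.12 for the other tested deserts.

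Developmental transcription factors flanked 225 deserts, with 37.3, 31.9, 34.4 and 32.5 peaks per Mb, against 21.6, 19.4, 19.05 and 18.98 in the other deserts. The difference was 14.3 ± 1.55 peaks per Mb, positive in 4 of 4 libraries (SD, n = 4, 2 of 16 sign patterns as extreme, exact sign-flip test). Dense deserts were 45 of 160, or 28.1%, against 16.3% of the others. Signalling genes, which encode ligands, receptors and their modulators, flanked 118 deserts, with 32.8, 24.98, 26.0 and 24.8 peaks per Mb, against 23.0, 20.9, 20.8 and 20.6 in the others. This difference was smaller, 5.85 ± 2.66 peaks per Mb, and again positive in 4 of 4 libraries (SD, n = 4, 2 of 16 sign patterns as extreme, exact sign-flip test). Dense deserts were 24 of 88, or 27.3%, against 17.2% of the others.

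Adhesion and synaptic genes, such as protocadherins, contactins and teneurins, flanked sparser deserts than other genes did. They flanked 206 deserts, with 11.2, 8.88, 8.38 and 8.53 peaks per Mb, against 29.2, 26.4, 26.6 and 26.1 in the other deserts. The difference was -17.8 ± 0.339 peaks per Mb, negative in 4 of 4 libraries (SD, n = 4, 2 of 16 sign patterns as extreme, exact sign-flip test). Dense deserts were 8 of 175, or 4.57%, against 20.8% of the others. Clustered receptor genes of smell, pheromone and taste flanked 24 deserts, of which 12 were tested and 2 were dense. Their libraries held 15.9, 19.4, 11.01 and 16.7 peaks per Mb, against 23.9, 21.3, 21.3 and 21.0 in the others, a difference of -6.13 ± 3.77 (SD, n = 4, 2 of 16 sign patterns as extreme, exact sign-flip test).

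**Figure D4:**
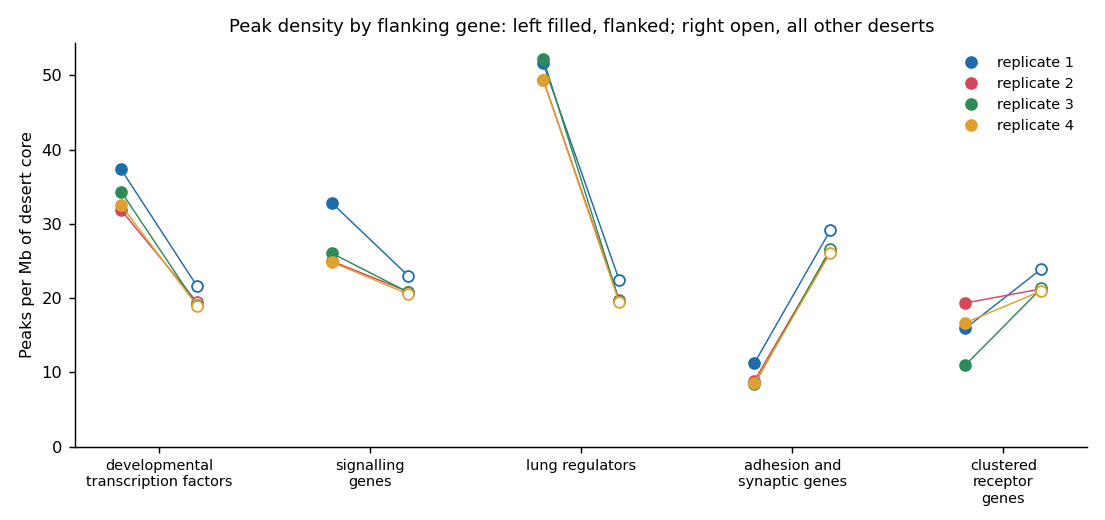
Peaks per Mb of desert core in each library (colours) for deserts flanked by genes of 5 lists (filled, left of each pair) and for all other deserts (open, right). Deserts beside lung regulators hold 49.4 to 52.2 peaks per Mb and those beside adhesion and synaptic genes 8.38 to 11.2.

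Adhesion genes flanked longer deserts, with a median core of 740 kb among those tested, against 371 kb for the others, so the lists were also compared within classes of core length. Shared desert regions beside adhesion genes were fewer in each class, 5.75 per Mb against 16.0 at 100 to 250 kb, 9.19 against 14.1 at 250 to 500 kb, 3.83 against 9.72 at 500 to 1000 kb and 2.04 against 4.05 over 1 Mb. Beside lung regulators they were 35.0 per Mb against 13.9, 21.5 against 13.0, 17.2 against 7.70 and 7.29 against 3.07 in the same classes, the longest with 5 deserts. Beside developmental transcription factors they were 28.6 per Mb against 13.5, 14.2 against 13.5, 13.7 against 7.31 and 6.01 against 2.83. At 250 to 500 kb the peak density beside these factors was higher in 3 of 4 libraries, and in the other classes in all 4. Beside signalling genes they were 24.9 per Mb against 14.2, 14.9 against 13.5, 8.78 against 8.71 and 5.02 against 2.95, and at 500 to 1000 kb the peak density was higher in 1 of 4 libraries. Beside clustered receptor genes they were 2.13 per Mb against 15.4 at 100 to 250 kb, with 8 deserts, and 16.6 against 13.6 at 250 to 500 kb, where 2 of 3 deserts were dense and the peak density was higher in 1 of 4 libraries. The list had no desert at 500 to 1000 kb and 1 over 1 Mb.

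**Figure D5:**
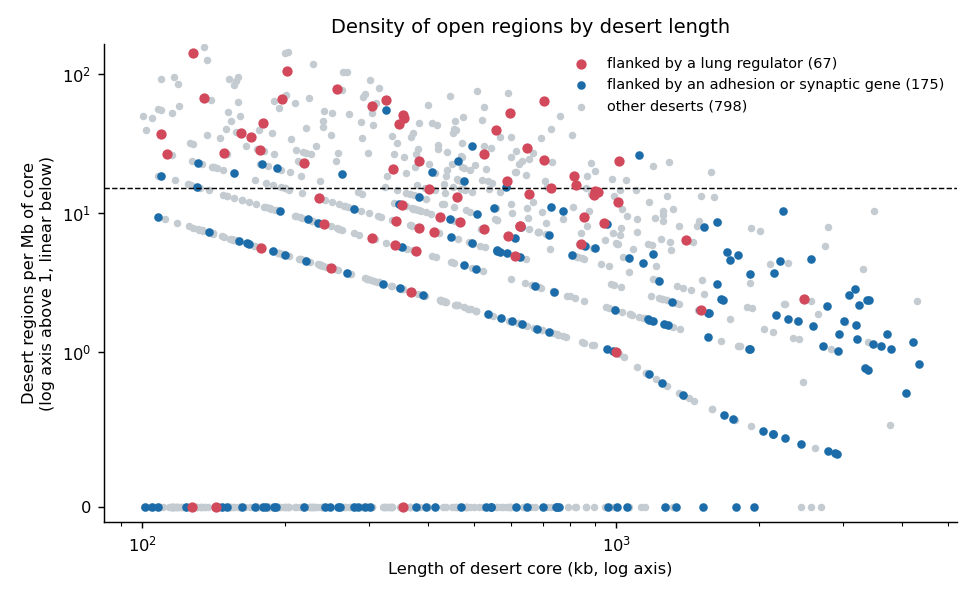
Desert regions per Mb of core against core length in kb (log axes, the vertical one linear below 1) for the 1040 tested deserts, coloured where a lung regulator (red) or an adhesion or synaptic gene (blue) flanks the desert. The dashed line is 14.96 per Mb, 2 times the pooled density; 8 of the 175 tested deserts beside adhesion genes are dense.

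The lists overlapped, since 48 of the 67 tested deserts beside lung regulators also had a developmental transcription factor and 22 a signalling gene. A gene of at least 1 of these 3 lists flanked 67 of the 188 dense deserts, or 35.6%, and 121 dense deserts had none. Of all 1040 tested deserts, 240 had such a gene, and 27.9% of these were dense, against 15.1% of the 800 without. Among deserts with a developmental transcription factor on 1 side only, 52.7% of the 1204 desert regions were nearer that gene, with 53.0% to 53.9% of peaks nearer it in the single libraries. Beside lung regulators 55.2% were nearer the listed gene, and beside signalling genes 46.2%.

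Counted by single desert, the lung regulators with most open regions on 1 side, after Tbx3 and Sox4, were Id2, Runx1, Fgfr2, Hes1 and Sox9. Over both sides of a gene, Meis1 and Sox9 had 28 regions each, Nfib 26 and Mycn 25, all more than Id2. Id2, an inhibitor of bHLH factors that marks distal epithelial tips, had 24 regions in Id2–Rnf144a, with 58, 65, 55 and 64 peaks in replicates 1 to 4. Of these 24, 16 were nearer Id2 and 12 fell in 1 window of 100 kb. Fgfr2, the epithelial receptor for FGF10, had 21 in Wdr11–Fgfr2, with 50, 63, 65 and 67 peaks. Hes1, a Notch target, had 21 in Opa1–Hes1, at 104 per Mb. Sox9, a factor of distal epithelium and cartilage, had 20 regions in the desert toward Slc39a11, at 77.8 per Mb, and 8 toward Gm11677, at 9.35 per Mb, so density differed between its sides. The libraries had 36, 64, 70 and 63 peaks on the dense side of Sox9 and 34, 19, 17 and 17 on the other.

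Foxf1, the forkhead factor of lung mesenchyme, had 18 regions in Irf8–Foxf1, at 141 per Mb, with 27, 51, 61 and 43 peaks. Its strongest region, at 120859182 to 120863174 of chromosome 8, had folds of 237, 37.0, 36.8 and 34.5. Nfib, needed for lung maturation, had 19 in Mpdz–Nfib, Tgfb2 18 in Lyplal1–Tgfb2 and Mycn, a factor of epithelial growth, 18 in Cyria–Mycn. The Iroquois genes Irx3 and Irx5 enclosed a desert with 17 regions, and Meis1 had 17 toward Spred2 and 11 toward Etaa1. Id4 had 15 toward Rnf144b and 0 toward Zfp169, and Gata6 had 15 toward Rbbp8 and 4 toward Mib1. In the Mpdz–Nfib desert the strongest region had folds of 216, 43.6, 42.6 and 38.0, a mean percentile of 98.5, which is among the 30 strongest regions between 2 genes. Other regulators had few by count. Fgf10, the mesenchymal ligand of Fgfr2, had 3 regions toward Nnt and 0 toward Mrps30. Shh, the epithelial hedgehog ligand, had 4 toward Rnf32, and Foxa2, a forkhead factor of lung epithelium, 4 on each side. Per Mb of core these were 8.75 toward Nnt, 7.61 toward Rnf32 and, for Foxa2, 8.55 toward Pax1 and 27.0 toward Sstr4. The pooled density of all deserts was 7.48 per Mb. Of the 87 deserts beside lung regulators, 78 held at least 1 desert region, against 975 of all 1519 deserts.

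Several long deserts were close to empty. The longest core, 4342 kb between the protocadherin genes Pcdh20 and Pcdh9 on chromosome 14, held 4 desert regions, with 29, 21, 15 and 14 peaks in replicates 1 to 4. An adhesion or synaptic gene flanked 7 of the 10 longest deserts, against 75 of the 204 with cores over 1 Mb. None of the 10 was dense, which is near the 2.94% of those 204. The longest with no desert region were Prmt6–Amy2b, with a core of 2697 kb and 6, 6, 3 and 9 peaks, and Cox7c–Edil3, with 2575 kb and 7, 13, 13 and 13 peaks. Fam98a–Crim1, Cbln2–Socs6 and Pcdh9–Spertl followed, with cores of 2448, 1947 and 1788 kb. Some genes beside these empty deserts were open themselves. The ends of Prmt6, Cox7c, Edil3, Fam98a, Crim1, Cbln2 and Socs6 had a peak in all 4 libraries. Those of Pcdh9 had a peak in 1 library, and those of Amy2b and Spertl in 0. Of all protein-coding genes, 67.8% had a peak of every library there. Dense deserts beside adhesion genes were led by Cdh11–Cdh5, with 29 regions, and Gm4791–Cadm1, with 18.

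The regions farthest from any gene lay in such long deserts. The farthest was in Celf4–Pik3c3, 2187 kb from Pik3c3, with folds of 16.4, 7.18, 6.68 and 5.29 and a mean percentile of 77.2 ± 5.88. A region in Olfm4–Pcdh17, 2130 kb from Pcdh17, had folds of 44.7, 9.66, 8.91 and 6.22. A second in that desert, 2060 kb from Olfm4, had folds of 3.53, 6.07, 5.29 and 5.60, and ranked at percentile 3.68 in replicate 1, against 75.02 to 76.75 in the other libraries. The region in Pcdh20–Pcdh9 had folds of 3.53, 2.76, 3.34 and 5.29, low in all libraries but replicate 4.

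The highest folds of all belonged to regions unlike those above. Of the 10 desert regions of highest mean percentile, 5 lay between the last gene and a chromosome end. The highest, beyond Fgf14 on chromosome 14, had folds of 1552, 2069, 2139 and 2530. A region of 37285 bp before Alkbh8, at the start of the assembled part of chromosome 9, had folds of 618, 1193, 1011 and 1134. The others at chromosome ends lay beyond Csf2ra, Asmt and Cr2. Between 2 genes, the highest were in Flrt2–Galc, a region of 360 bp with folds of 810, 689, 610 and 554, and in Tcp10c–Tcte2, with folds of 441, 568, 568 and 632. The 14507 bp region of 9530057J20Rik–Gm15319 followed, with 432, 221, 199 and 204, then regions in Fbxo15–Neto1 and F2rl3–Isx. Whether collapsed repeats or artefact-prone sequence contribute to these folds was not tested.

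Whether a desert exists depends on what counts as a gene. When every annotated gene, non-coding ones included, ended a desert, 622 desert regions and 15 dense deserts were left. Most desert regions thus lay in or within 100 kb of an annotated non-coding gene or pseudogene. The desert core shrank too, so part of this fall came with the DNA removed. Regions left numbered 3.14 per Mb of the remaining core, against 7.48 per Mb under the main rule. The differences beside lung regulators and developmental transcription factors were then 30.2 and 17.2 peaks per Mb, and that beside adhesion genes -1.48. With a q of 1e-05 or less in each library, there were 3213 desert regions, against 5347 with the authors' lists as deposited.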

How the data were processed

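ATAC-seq peak lists of 4 libraries were used, 1 deposited list per library. The submitters' processing notes name build mm10 and the tools MACS3 3.0.1, deepTools, bedtools 2.31.0, SAMtools 1.18, Bowtie2 2.5.2, FastQC 0.12.1 and Trim Galore. Their roles, parameters, duplicate handling, Tn5 shift and removal of artefact-prone regions are not given in the sources used here. The deposited fold, a ratio of summit pileup to background made by the authors, was used as a percentile within each list. The deposited −log10 q values set the stricter alternative, the deposited summit offset the summit windows, and the deposited score and −log10 p were not analysed further. Depth is unknown beyond list length, since read totals were not analysed here, and no counting interval is given.

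Overlapping or adjoining peaks were merged with Python code (NumPy, pandas), tested on simulated peaks. Gene positions came from RefSeq for GRCm38.p6, the assembly of mm10: 21517 protein-coding genes, after 110 whose positions ran out of chromosome order were left out. A desert core is the DNA between neighbouring genes less 100 kb at each end. For each library a desert region took its highest peak. Libraries were compared by two-sided exact sign-flip permutation tests, with 4 values each, and numbers of regions were not tested.

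The members, gene lists, tests and naming rule were chosen with earlier results of these data known. Named deserts were the 15 with most desert regions, the 10 densest with cores of 500 kb or more and at least 5 regions, the 5 longest with none, and up to 15 beside lung regulators. Named regions were the 10 of highest mean percentile, the 5 farthest from genes and the strongest in each of the 5 leading deserts. MicroRNAs, shown promoters and the remaining genes in the text were chosen after their values were seen. Alternatives left out each library, or changed the number of libraries, q, list length, distance, gene set, peak windows, core length, weighting and the limit for dense. Keeping the out-of-order genes and leaving out X were alternatives chosen after seeing the data. Sequences came from RefSeq tables for GRCm38.p6, and no genome sequence was used. The check against markers of other organs and the location of 1 microRNA gene are not reported here.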

Additional observations from a re-analysis of the deposited data

Results flagged for a closer look

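Values given per library were checked for a library far from the others by Dixon's test at its 95% critical value for 4 libraries. Of 54 values tested, 16 were flagged, all for replicate 1; chance flags about 1 in 20, and these values share the same lists. Replicate 1 had 17055 desert peaks, against 14991 to 15233 in the others, and a median fold percentile of 71.2 in shared regions outside deserts, against 81.4 to 82.9.

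The same library had the highest peak density beside signalling genes, 32.8 per Mb against 24.8 to 26.0, and in deserts without a signalling gene, 23.0 against 20.6 to 20.9. It was also highest in deserts without a lung regulator, 22.4 against 19.4 to 19.7, in deserts without a clustered receptor gene, 23.9 against 21.0 to 21.3, and at 200 to 400 kb from genes, 26.9 against 21.5 to 22.2. Among the deserts with most regions, it had 79 peaks in Rps24–Zmiz1, against 115 to 120, and 108 in Gm44812–Mctp2, against 57 to 65.

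Among single regions, its fold percentile was lowest at 3.68 in Olfm4–Pcdh17, against 75.02 to 76.75. Regions of very high fold differed by little: 99.987 before Alkbh8, 99.932 in Tcp10c–Tcte2, 99.929 in 9530057J20Rik–Gm15319, 99.308 beyond Csf2ra, 99.061 beyond Asmt and 98.615 beyond Cr2, with the other libraries at 99.98 or above.

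Peak names of this list carry "Frais", where those of the other lists carry "Frozen". That difference cannot be told apart from the library itself.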

How the results depend on the processing

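The 5 comparisons of flanking lists kept their direction under the 14 alternatives that could change their values (the number of libraries cannot move a density of peaks). Leaving out 1 library could not reverse a list difference, since all 4 libraries had the same sign. The comparisons of fold percentile and width kept their direction under all 12 of their alternatives. With 4 libraries or fewer no exact test could pass 0.05. Without 1 library in turn, the number of desert regions was 5715 to 6738 and that of dense deserts 191 to 216. The gap in the share of merged regions open in all libraries, -5.15 percentage points (desert minus outside), was -6.05 to -3.72 then.

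Desert regions numbered 8674 with at least 3 of 4 libraries, 3213 with a q of 1e-05 or less, 8963 and 2455 at limits of 50 and 200 kb, and 622 when all annotated genes ended a desert. Dense deserts numbered 288 and 110 at those limits, and 15 with all annotated genes. That gap was -7.25 with at least 3 libraries, -14.9 at the stricter q, -9.30 with lists of equal length, -4.24 and -6.69 at the 2 limits, -8.40 with all annotated genes and -2.79 with summit windows. The cause was not tested beyond each alternative's own construction.

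Beside adhesion genes the difference lay between -22.5 and -1.48 peaks per Mb, and was -1.48 with all annotated genes, where 3 of 4 libraries kept the sign. Beside signalling genes it lay between 2.11 and 11.9, and beside lung regulators between 15.9 and 32.9. Of the 15 leading deserts, 9 held a count over 1.5 times different at the stricter q, 11 with at least 3 libraries, 6 at 200 kb, and 2 (Mn1–Cryba4 and Foxl1–1700018B08Rik) without replicate 1. At 200 kb 9530057J20Rik–Gm15319 and Foxl1–1700018B08Rik held 0. The desert with most regions was Mn1–Cryba4 also with at least 3 libraries (75, against 69 in Med13l–Tbx3) and with lists of equal length (39 against 34), Zeb2–Acvr2a at 200 kb (33 against 30), Defb7–Defb33 with predicted gene names left out (134 against 45) and Gm39127–4933430N04Rik with all annotated genes (10). On autosomes alone 175 deserts were dense. The sign-flip tests paired values within each library. No paired analysis of sample groups was possible because there is 1 group. Peak lists limit what can be said of regions under the authors' threshold.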

Other observations

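On X, 10.3% of 1649 merged desert regions were open in all 4 libraries, against 17.3% of 29989 on autosomes. Of 288 desert regions of X held by exactly 2 libraries, 205 were held by replicates 2 and 4, against 660 of 4565 on autosomes. Outside deserts, X had 690 of 1126 such regions in replicates 2 and 4, against 7781 of 44926 on autosomes. The labels give no sex of the embryos, and no cause was tested.

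Both sides of a few genes were rich in open regions. Med13l had 54 desert regions in its 2 deserts, Mctp2 46, Bcor and Myc 44 each, Zfp608 43 and Tle3 41. The 41 beside Tle3, a Groucho-family corepressor, lay in 0.587 Mb of core, or 69.9 per Mb, and the 32 beside Rybp, a Polycomb component, in 0.387 Mb, or 82.8 per Mb. These genes were chosen after their values were seen.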
